A study of Ovis aries and Capra hircus and Bos taurus with 26 samples.

Results

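H3K4me3 peaks with 2 or 3 summits were examined in liver from cattle, sheep and goats. A summit is the base at which the authors' peak caller placed a local maximum of enrichment, and 1 peak can hold several. The peaks were selected on their own values: an H3K4me3 interval on an autosome, narrower than 2000 bp, that was listed with exactly 2 or 3 summits. Over the 9 H3K4me3 libraries, 75928 of 276072 peaks met these conditions, 60115 with 2 summits and 15813 with 3. A library held 7097 to 9276 of them, which was 27.9% to 35.6% of its autosomal peaks. The 155194 autosomal peaks narrower than 2000 bp with a single summit served as the comparison.

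ChIP-seq (chromatin immunoprecipitation followed by sequencing) was performed on frozen liver of adult, healthy and untreated animals, 3 Holstein cattle, 3 Texel sheep and 3 Yunnan black goats, which carry the letters A, B and C within a species. H3K4me3 was listed for all 9 animals and H3K27ac for 8, since the H3K27ac of cattle A was not analysed here. Liver samples were whole tissue, in which hepatocytes lie beside other cells, so 2 summits of 1 list need not come from the same cell or the same chromosome copy. Fewer cells carrying a mark and a weaker mark per cell cannot be told apart in such samples.

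H3K4me3 (trimethylation of lysine 4 of histone H3) is laid down by SET1 and MLL complexes around the start sites of transcribed genes, many of them in CpG islands. H3K27ac (acetylation of lysine 27) is laid down by p300 and CBP on active promoters and enhancers. At an active promoter the start site itself is usually free of nucleosomes, and the marked nucleosomes stand on either side of it, so that the signal of both marks can have several maxima.

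The summits of 2-summit peaks lay mostly 300 to 600 bp apart. The median spacing was 442, 420 and 470 bp in cattle A, B and C, 452, 455 and 498 bp in sheep and 465, 464 and 471 bp in goats. The species overlapped, with means of 444 ± 25.1, 468 ± 25.7 and 467 ± 3.8 bp (SD, n = 3 each) for cattle, sheep and goats. Spacing, width and fold enrichment come from the lists that chose the peaks, so they are given as a description without a test. In each library 64.6% to 70.1% of the 2-summit peaks were spaced by 300 to 600 bp. Close pairs were rare, as 1.49% to 3.21% of a library had summits under 200 bp apart. Wide pairs were also few, with 2.93% to 6.02% beyond 800 bp. The closest pair of a library was 14 to 72 bp apart and the widest 1234 to 1511 bp.

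**Figure D1:**
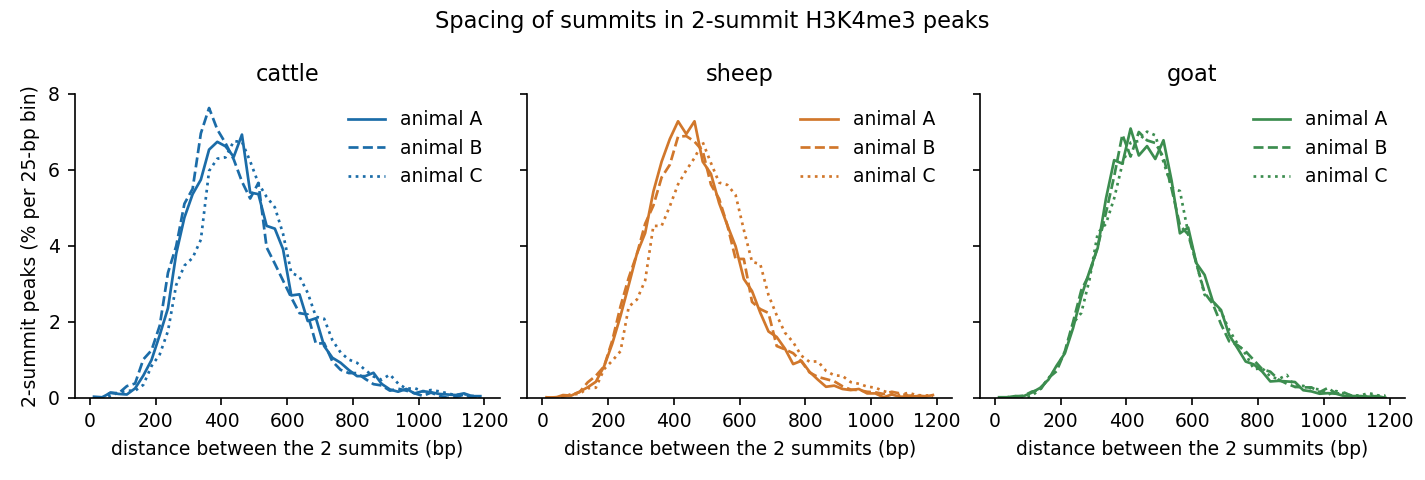
Spacing of the summits in 2-summit H3K4me3 peaks, as the percentage of a library's 2-summit peaks (vertical axis) in each 25-bp bin of the distance between summits (horizontal axis, drawn to 1200 bp), with 1 line per animal. Each of the 9 lines has a single broad rise with its top between 350 and 500 bp, and cattle C and sheep C lie to the right of the other animals of their species.

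In 3-summit peaks the neighbouring summits were a little closer together than the summits of 2-summit peaks, in each library. Their median spacing ran from 406 to 453 bp over the libraries, against 420 to 498 bp in 2-summit peaks. The outer summits lay 831 to 932 bp apart. The first spacing did not track the second within a peak. Pearson's r across the 3-summit peaks of a library, which share its enrichment profile, lay between -0.10 and -0.0067, with 1234 to 2109 peaks per library. The wider of the pair of spacings was 1.36 to 1.41 times the narrower at the median.

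The 2- and 3-summit peaks were wide, with a median of 1155 to 1332 bp in a library against 473 to 557 bp for single-summit peaks. By number, the median was 1067 to 1274 bp with 2 summits and 1414 to 1617 bp with 3. The 2 summits of a 2-summit peak enclosed 39.8% to 41.9% of its width at the median. Spacing grew with width. The median of the 9 libraries was 359 bp in peaks of 500 to under 1000 bp, 488 bp in those of 1000 to under 1500 bp and 628 bp in those of 1500 to under 2000 bp.

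The summits of a peak were unequal. Fold enrichment is the ratio of signal to the background that the peak caller modelled. In 2-summit peaks its median was 7.75 to 9.40 at the stronger summit and 4.76 to 5.35 at the weaker, and the ratio of the pair was 1.36 to 1.52 at the median. It exceeded 2 in 19.7% to 30.2% of the 2-summit peaks. In 3-summit peaks the middle summit was the strongest in 41.3% to 44.9% and the weakest in 12.4% to 17.2%. The highest fold enrichment of a peak had a median of 7.51 to 9.04 in the 2- and 3-summit peaks and 5.70 to 6.67 in single-summit peaks.

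At the width limit, the selected peaks just inside (1900 to under 2000 bp, 69 to 267 per library) had a median fold enrichment of 6.22 to 7.58. Those with 2 or 3 summits that exceeded the limit by less than 100 bp (27 to 175) had 6.28 to 7.13. In all, 1954 peaks with 2 or 3 summits were left out for width, 6010 for lying off the autosomes and 5500 autosomal peaks for holding 4 or more summits.

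The first comparison asked whether these peaks held H3K27ac more often than single-summit peaks. H3K27ac played no part in the selection. A summit of the same animal's H3K27ac lay inside 88.7% and 86.9% of the selected peaks in cattle B and C. The sheep had 86.0%, 83.9% and 85.8% (A, B and C) and the goats 91.3%, 89.2% and 87.8%. Of all autosomal H3K4me3 peaks of these 8 animals, 69.8% held one. Single-summit peaks held one in 52.7% to 67.0%, so the classes did not overlap. The difference was 27.1 ± 2.51 percentage points (SD, n = 8), positive in 8 of 8 animals (p = 0.00781 by a two-sided exact sign-flip test over animals, which cannot go lower with 256 arrangements). When 1 H3K27ac peak had to cover at least 50% of the interval, the difference was 6.98 percentage points.

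The difference depended on width. Among peaks of 500 to under 1000 bp, 67.1% ± 6.53 of the 2- and 3-summit peaks and 76.3% ± 4.78 of the single-summit peaks held an H3K27ac summit (SD, n = 8 animals). The difference was -9.21 percentage points, negative in 8 of 8 animals, and -5.66 with entries of −log10 q of at least 5. Among those of 1000 to under 1500 bp it was -3.93, again in 8 of 8 animals (p = 0.00781 for both, two-sided exact sign-flip test). Among those of 1500 to under 2000 bp it was -0.69, negative in 6 of 8 animals, and did not pass the threshold of 0.05 (p = 0.195, the same exact test). At the stricter threshold this value turned to 2.03 (p = 0.0547, the same exact test). That class held only 19 to 166 single-summit peaks per animal. Within 500 to under 1000 bp the selected peaks were also the wider, with a median of 828 bp on average over animals against 705 bp, and the weaker in H3K4me3, with a fold enrichment of 6.24 against 8.37. The part of fold enrichment in the difference was not tested.

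In classes of 100 bp, 2-summit peaks held an H3K27ac summit less often than single-summit peaks in 8 of 8 animals in each class from 400 to under 1400 bp. At 800 to under 900 bp the means were 70.1% and 87.7%, the widest difference at -17.6 percentage points. At 1300 to under 1400 bp they were 96.8% and 98.9%, and at 1400 to under 1500 bp they were 98.1% and 98.0%, with the 2-summit share lower in 4 of 8 animals. Peaks with 3 summits lay lower again. At 1000 to under 1100 bp 69.4% of them held an H3K27ac summit against 86.8% of the 2-summit peaks, and they were lower in 8 of 8 animals in each class from 1000 to under 1600 bp.

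**Figure D2:**
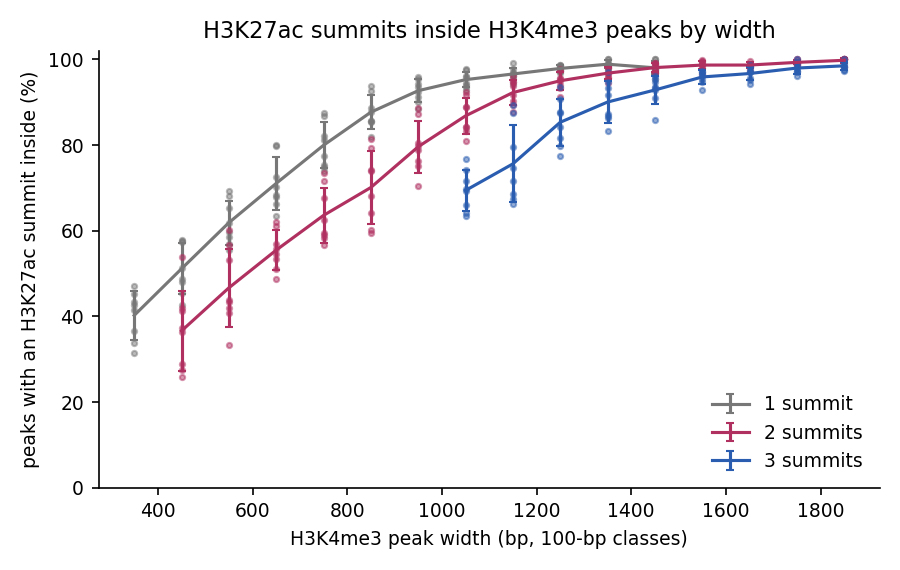
Percentage of H3K4me3 peaks with an H3K27ac summit of the same animal inside (vertical axis) by peak width in 100-bp classes (horizontal axis) for peaks with 1, 2 and 3 summits. Points are the 8 animals, lines their means and bars their SD, and only classes with at least 20 peaks in each animal are drawn. At a given width below 1400 bp the order is 1, 2 and then 3 summits, from 87.7% to 70.1% for 1 and 2 summits at 800 to under 900 bp.

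The second comparison asked where in the peak the H3K27ac summits lay. They sat at the H3K4me3 summits. Within 75 bp of an H3K4me3 summit lay 65.2% and 69.2% of the H3K27ac summits inside the selected peaks of cattle B and C, 67.6%, 69.0% and 64.7% in sheep and 68.8%, 69.6% and 70.9% in goats. The bases within 75 bp made up 25% to 29.2% of the peaks. The excess was 41.3 ± 2.79 percentage points (SD, n = 8), positive in 8 of 8 animals (p = 0.00781, two-sided exact sign-flip test), over 110793 H3K27ac summits. The median distance to the nearest H3K4me3 summit was 38 to 49 bp.

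Along 2-summit peaks the density of H3K27ac summits had 2 maxima with a trough between them. It was 5.11 ± 0.52 per kb at the left summit, 0.42 ± 0.06 midway and 5.06 ± 0.51 at the right summit (SD, n = 8 animals). Outside the pair, at 0.4 to 0.5 of the spacing beyond either summit, it was 0.48 ± 0.05 on the left and 0.46 ± 0.07 on the right. The ranges at the summits, from 4.36 to 6.08, did not overlap those midway, from 0.37 to 0.56.

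**Figure D3:**
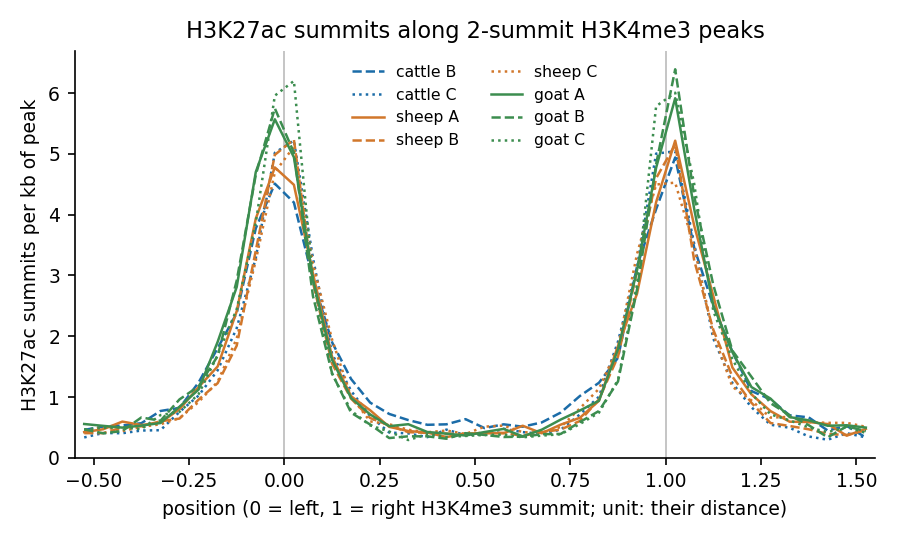
H3K27ac summits per kb of peak (vertical axis) along 2-summit H3K4me3 peaks, with position scaled so that the left summit is 0 and the right summit is 1 (horizontal axis) and 1 line per animal. All 8 lines rise at both summits, to means of 5.11 and 5.06 per kb, and fall to 0.42 per kb midway.

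The stretch between the summits as a whole and the flanks of 2-summit peaks did not differ past the threshold in H3K27ac summits per kb. The log2 ratio of their number per kb, between over outside, was 0.10 and 0.26 in cattle B and C, -0.07, 0.17 and 0.25 in sheep and -0.13, -0.31 and -0.05 in goats. The mean was 0.03 ± 0.20 (SD, n = 8), positive in 4 of 8 animals (p = 0.719, two-sided exact sign-flip test). Its sign turned with 1 animal left out, to -0.0068 without cattle C and -0.0051 without sheep C. In peaks narrower than 1000 bp it was -0.16 (p = 0.0547, the same exact test). In 3-summit peaks, where the stretch between the outer summits contains the middle one, it was 0.12 ± 0.12, positive in 7 of 8 animals, and passed the threshold (p = 0.0391, the same exact test).

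By spacing the ratio took no steady course, given here without a test. The mean log2 ratio over animals was 0.45 ± 0.29 for summits 100 to under 300 bp apart, -0.15 ± 0.24 for 300 to under 500 bp, 0.09 ± 0.28 for 500 to under 700 bp and 0.19 ± 0.10 from 700 bp (SD, n = 8). Over the same classes the share of 2-summit peaks with an H3K27ac summit inside rose from 70.9% to 83.4%, 93.9% and 95.4% on average. H3K27ac summits within 75 bp of an H3K4me3 summit made up 63.7%, 71.0%, 67.9% and 54.7% on average. The bases within 75 bp, whose share falls with spacing, made up 36.0%, 28.2%, 22.6% and 19.8%. The excess over bases was thus 27.6 ± 2.24, 42.8 ± 2.21, 45.3 ± 3.14 and 34.9 ± 2.79 percentage points, and the middle pair of classes overlapped.

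The third comparison asked which of the H3K4me3 summits the H3K27ac summit lay nearer. It was mostly the stronger one in 2-summit peaks with exactly 1 H3K27ac summit, which made up 23.7% to 36.8% of the 2-summit peaks. Among 15467 2-summit peaks with exactly 1 H3K27ac summit inside and unequal fold enrichment, 12111 had it nearer the stronger H3K4me3 summit. By animal this was 77.5% and 77.5% in cattle B and C, 77.7%, 77.7% and 78.6% in sheep and 78.8%, 78.7% and 80.3% in goats. The excess over 50% was 28.4 ± 0.94 percentage points (SD, n = 8), positive in 8 of 8 animals (p = 0.00781, two-sided exact sign-flip test). Of the bases of these peaks, 53.7% to 56.1% lay nearer the stronger summit, and the excess over that share was 23.0 ± 0.77 percentage points (p = 0.00781, the same exact test).

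Over all 2-summit peaks, an H3K27ac summit lay within 75 bp of the stronger H3K4me3 summit in 57.3% to 65.2% and of the weaker in 37.8% to 49.0%. These ranges did not overlap. Both summits had one in 24.3% to 38.1%, and neither had one in 23.1% to 30.9%. The summit of single-summit peaks had one in 37.2% to 46.7%, a range that overlapped that of the weaker summit. These shares are over all peaks of a class. Single-summit peaks were narrower and held any H3K27ac summit in 52.7% to 67.0%, against 82.4% to 90.4% of 2-summit peaks. The overlap thus does not show that single summits were like the weaker ones. In 3-summit peaks the share fell with the rank of the summit, from 62.9% ± 4.99 to 47.3% ± 5.36 and 35.1% ± 3.79 (SD, n = 8 animals).

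**Figure D4:**
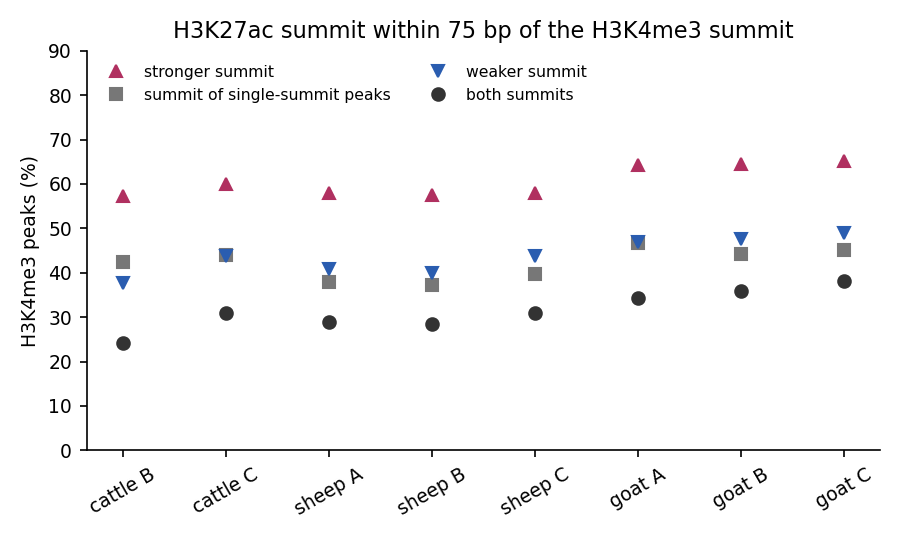
Percentage of H3K4me3 peaks with an H3K27ac summit of the same animal within 75 bp of the stronger, the weaker or both summits of 2-summit peaks, and of the summit of single-summit peaks (vertical axis), for the 8 animals (horizontal axis). In each animal the stronger summit, at 57.3% to 65.2%, stands above the weaker one, at 37.8% to 49.0%.

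Peaks with 3 H3K4me3 summits also held more H3K27ac summits. A 2-summit peak held 1.54 ± 0.09 H3K27ac summits and a 3-summit peak 2.07 ± 0.13 (SD, n = 8 animals). The difference of 0.53 was positive in 8 of 8 animals (p = 0.00781, two-sided exact sign-flip test). No animal overlapped, as the lowest value for 3 summits, 1.91, was above the highest for 2 summits, 1.64. Per kb of peak the difference was smaller, 1.32 ± 0.07 against 1.37 ± 0.08, and positive in 7 of 8 animals (p = 0.0234, the same exact test). Of the 2-summit peaks, 42.2% to 51.1% held exactly 2 H3K27ac summits. Of the 3-summit peaks, 22.8% to 39.1% held exactly 3 and 32.0% to 44.3% exactly 2, which was the more frequent number of the pair in 7 of 8 animals.

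In the 25023 2-summit peaks with exactly 2 H3K27ac summits, the spacings of the marks were positively correlated over all widths together. Both H3K27ac summits lay within 75 bp of the corresponding H3K4me3 summit in 48.1% to 59.2%. The median H3K27ac spacing of an animal was 485 to 532 bp and the median H3K4me3 spacing of the same peaks 457 to 522 bp. Across these peaks, 2545 to 3707 per animal that share 1 library of each mark, Pearson's r of the spacings was 0.45 to 0.56. Peak width bounds both spacings, and r was not taken within width classes, so the part of width in it was not tested. In 61.6% to 82.9% both summits belonged to the same H3K27ac peak. Under the same selection, 2-summit H3K27ac peaks had a median spacing of 396 to 436 bp in the 8 H3K27ac libraries. H3K27ac summits inside the selected peaks had a median fold enrichment of 4.38 to 4.85, near the 4.42 to 4.91 inside single-summit peaks. Outside all H3K4me3 peaks it was 3.11 to 3.43, a value that also takes in sequences other than autosomes.

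The position of H3K27ac summits was compared with the H3K27ac lists of the other animals of the species. The near-summit excess was 41.3 percentage points with the animal's own list and 40.6 on average over all pairings of letters within species. With 72 arrangements of letters, the difference of 0.62 reached the lowest p that an exact permutation test can give (p = 0.0139, two-sided). It was small beside the spread of pairings with another animal, from 36.5 to 44.0. Without sheep A the difference was 0.32 (p = 0.0417, the same exact test, again the lowest it can give, with fewer arrangements). The own list gave a higher excess than the mean of the other lists in 5 of 8 animals. The share of selected peaks with an H3K27ac summit inside was 87.5% with the own list and 87.2% over all pairings (p = 0.0139, the same exact test). It was higher than the mean of the other lists in 6 of 8 animals, by 0.45 percentage points on average over the 8.

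The next comparison asked whether a peak with several summits had several again in another animal of its species. A peak was matched when 1 H3K4me3 peak of the other animal covered at least 50% of its length, and 88.4% to 98.9% of the selected peaks of an animal were matched on average over the other 2 animals. Single-summit peaks were matched in 68.3% to 91.3%, so the classes also differed in the share that could be compared. Of all matched autosomal peaks, 43.0% were covered by a peak with 2 or more summits. For the selected peaks this share was 69.0%, 73.9% and 82.4% in cattle A, B and C. It was 75.4%, 77.3% and 81.5% in sheep and 83.2%, 80.2% and 81.7% in goats. For single-summit peaks it was 13.6% to 27.9%, with no overlap. The difference was 59.2 ± 6.30 percentage points (SD, n = 9), positive in 9 of 9 animals. It is given without a test, since summit number also chose the peaks in each list and the same pairs of peaks enter the values of both animals.

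Within width classes the difference in recurrence kept its direction in 9 of 9 animals in each class, again without a test. It was 37.3 ± 4.03 percentage points at 500 to under 1000 bp, where 55.6% of the selected and 18.3% of the single-summit peaks had a several-summit counterpart on average. It was 47.6 ± 7.0 at 1000 to under 1500 bp and 25.7 ± 7.52 at 1500 to under 2000 bp.

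**Figure D5:**
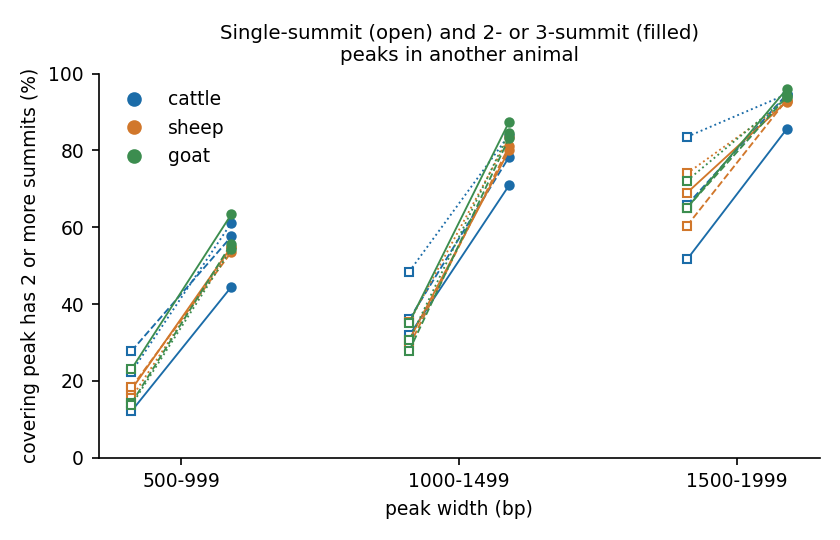
Percentage of matched H3K4me3 peaks whose covering peak in another animal had 2 or more summits (vertical axis), for single-summit peaks (open squares) and peaks with 2 or 3 summits (filled circles) in 3 width classes (horizontal axis). Each line joins the classes of 1 animal, with its value averaged over the other 2 animals of the species, and every line rises.

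The number of summits often differed between animals. A matched 2-summit peak met a peak with exactly 2 summits in 52.3% to 69.7%, with 1 in 17.4% to 39.5% and with 3 in 5.73% to 17.9%, over the 18 ordered pairs of animals. A matched 3-summit peak met exactly 3 summits in 30.8% to 53.9% and 2 in 28.3% to 48.6%. Where the number was the same, positions were close. Corresponding summits of 2-summit peaks were shifted by a median of 21 to 40 bp, both lay within 75 bp in 56.2% to 79.8%, and the spacings of the 2 animals had a Pearson's r of 0.47 to 0.75 across 2924 to 4836 peaks. For 3-summit peaks the median shift was 21 to 52 bp, and 36.2% to 70.6% had all summits within 75 bp. All 3 animals of a species shared the number of summits, with each within 75 bp, at 987 2-summit and 81 3-summit regions in cattle. Sheep had 1745 and 172 such regions and goats 2360 and 350. As a share of an animal's selected peaks with that number of summits, the 2-summit regions were 14.5% to 16.9% in cattle, 25.3% to 25.8% in sheep and 32.4% to 36.4% in goats, depending on the animal. The 3-summit regions were 3.84% to 6.56%, 9.09% to 12.5% and 17.5% to 19.3%.

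The H3K27ac measures were compared between species over the 8 animals. The excess of 2- and 3-summit peaks over single-summit peaks was 26.3 ± 2.13 percentage points in the 2 cattle (SD), 29.5 ± 1.96 in the 3 sheep and 25.1 ± 0.87 in the 3 goats. By an exact permutation test over 560 arrangements the species did not differ past 0.05 (F = 5.51, p = 0.0893, adjusted p = 0.171 over the 3 measures by Benjamini-Hochberg). Neither did that of the log2 ratio between over outside (F = 4.31, p = 0.114, adjusted p = 0.171, the same exact test), nor that of the near-summit excess (F = 1.19, p = 0.404, adjusted p = 0.404, the same exact test). With 2 or 3 animals per species these tests do not show that the species were alike.

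Peaks with 2 or 3 summits were found on every autosome. By mean share of the autosomal peaks, cattle chromosome 12 was lowest, with 28.3% ± 2.30, and chromosome 10 highest, with 34.3% ± 4.24 (SD, n = 3). In sheep the ends were chromosomes 4, with 26.9% ± 3.85, and 24, with 33.6% ± 2.04. In goats they were chromosomes 12, with 29.8% ± 0.71, and 25, with 38.6% ± 0.62. These are the ends of a ranking and were not tested.

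Single regions show the pattern at base level. They were chosen by rank of fold enrichment, or by spacing, among the regions with the same summits in all 3 animals. Genes and exons at these positions, and liver marker genes, were not analysed here, because no annotation of the builds was at hand. Positions are 1-based.

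The strongest 2-summit region of cattle (ARS-UCD1.2) was chr1:83230738-83231403 in animal A, among the 7 strongest 2-summit peaks of each animal. Its summits were 296, 297 and 299 bp apart in animals A, B and C. The fold enrichment was 16.1, 16.9 and 18.5 at the left summit and 17.1, 16.2 and 14.0 at the right. H3K27ac had 2 summits in both B and C, 1 to 19 bp from those of H3K4me3, at bases 83230944 and 83231261 in B. The stronger summit was the right one in A and the left one in B and C, and both summits coincided with H3K27ac in B and C.

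The sheep (Oar_rambouillet_v1.0) and goat (ARS1) regions were unequal pairs. In sheep, chr25:4420212-4420970 in animal A had summits 404, 411 and 424 bp apart in A, B and C, with a fold enrichment of 23.1, 21.5 and 21.5 at the left and 5.94, 4.69 and 3.97 at the right. An H3K27ac summit lay 3, 7 and 10 bp from the left summit, and a second one lay 10 and 3 bp from the right summit in A and C only. In goats, chr5:44817235-44818199 in animal A had summits 541, 555 and 541 bp apart, with 4.36, 3.02 and 4.17 at the left and 15.4, 20.2 and 20.1 at the right. Its sole H3K27ac summit lay 28, 11 and 12 bp from the right, stronger summit.

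In the strongest 3-summit region of cattle, chr17:71241439-71242765 in animal A, the middle summit was the strongest in each animal, with a fold enrichment of 12.9, 12.5 and 11.8. The right summit was the weakest, with 4.15, 3.94 and 4.36, and H3K27ac had summits at the left and middle positions only, 4 to 34 bp away, in B and C. The goat region chr7:89408975-89410212 had the same order, with a middle summit of 14.3, 16.4 and 15.0. An H3K27ac summit lay 16, 5 and 10 bp from the middle summit in A, B and C. The second H3K27ac summit stood near the left H3K4me3 summit in A and near the right one in B and C, 54, 69 and 8 bp away. In sheep, chr4:57794371-57795687 had its strongest summit on the left, with 13.6, 13.7 and 12.3. H3K27ac had 3 summits in A and C and 2 in B, which lacked the one at the weakest, right summit.

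The widest-spaced 2-summit regions differed among themselves. In cattle, chr6:18864172-18865907 in animal A had summits 900, 893 and 932 bp apart in A, B and C. The stronger H3K27ac summit lay between them there, 429 bp from the nearest H3K4me3 summit in B and 445 bp in C, with an H3K27ac fold enrichment of 8.34 and 10.2. In sheep, chr1:215220546-215221976 in animal A had summits 1129, 1152 and 1048 bp apart. An H3K27ac summit lay between them at bases 215221232, 215221234 and 215221208 in A, B and C, 500, 494 and 457 bp from the nearest H3K4me3 summit. A stronger H3K27ac summit lay 37, 2 and 39 bp from the right, stronger H3K4me3 summit, with an H3K27ac fold enrichment of 4.47, 3.67 and 4.63 against 3.78, 3.47 and 3.55 for the one between. In goats, chr6:84805724-84807255 in animal A had summits 1073, 1053 and 1058 bp apart. The strongest H3K27ac summit of each animal lay 54, 28 and 30 bp from the left, stronger summit.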

How the data were processed

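ChIP-seq peak lists of H3K4me3 (9 libraries) and H3K27ac (8 libraries) were used. The 9 inputs entered no comparison. Per the study's methods and the processing notes, the authors trimmed reads with Trim Galore 0.4.0, aligned them with BWA-MEM 0.7.17, removed duplicates with Picard 2.25.0, subsampled reads and called narrow peaks with MACS2 2.1.1 at q under 0.01. The option that gives several summits per peak is not given in the sources used here. Per the methods the inputs were control libraries and were subsampled as well, but whether the peak caller used them for these lists is not stated there. The labels name ARS-UCD1.2 for every sample, whereas the methods, and the sequence names, point to Oar_rambouillet_v1.0 in sheep and to ARS1 in goats. The deposited lists give, per summit, the fold enrichment (a ratio to background) and the p-value and q-value as −log10. Depth was not measured, since a list holds no read numbers, and the precision rests on 2 or 3 animals per species.

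Entries sharing an interval were joined into 1 peak, and autosomes 1 to 29 of cattle and goats and 1 to 26 of sheep were kept. The peaks, classes and regions were chosen with earlier results of these data known. Recurrence between animals was to be tested by sign flips over animals, but it is given without a test because animals of a species share peak pairs. Animals were the unit of all tests, which are exact and two-sided except F, with a threshold of 0.05. The animal letter marks the same liver in the sample titles, so it pairs the marks, and both peak classes come from the same library, so differences were taken within an animal. Separate animals were not checked for relatedness.

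Named regions had the same number of summits in all 3 animals, coverage of at least 50% between every pair of animals, and corresponding summits within 75 bp. Per species they were the 2-summit and the 3-summit region whose poorest rank by fold enrichment was best, and the 2-summit region with the widest mean spacing. Alternatives were entries with −log10 q of at least 5, windows of 50 and 100 bp, other overlap rules, peaks with exactly 2 or exactly 3 summits, narrower peaks, wider spacing, and leaving out each animal. The share of bases nearer the stronger summit, and the stricter threshold within width classes and for species, were added afterwards. Python 3.11.15, numpy 2.4.6, pandas 2.3.3, scipy 1.17.1 and matplotlib 3.10.9 were used. The overlap code was tested on 1800 simulated peaks against direct counting, with 0 differences.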

Additional observations from a re-analysis of the deposited data

Results flagged for a closer look

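The log2 ratio of H3K27ac summits per kb between over outside the summits of 2-summit H3K4me3 peaks was positive in both cattle, with 0.10 and 0.26 and a mean of 0.18. It was negative in all 3 goats, with -0.13, -0.31 and -0.05 and a mean of -0.16. Cattle and goats thus had opposite signs over all spacings together, while the sheep lay on both sides of 0, from -0.07 to 0.25. The signs were not opposite within each class of spacing. All 3 goats were positive, like both cattle, for summits 100 to under 300 bp apart (0.22 to 0.61) and from 700 bp (0.14 to 0.32), and cattle B was negative at 300 to under 500 bp (-0.08). The difference between cattle and goats was not tested on its own. An exact permutation test over all 3 species gave F = 4.31 and p = 0.114, short of the threshold. Groups of 2 or 3 animals are too small for a search for single outlying values.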

How the results depend on the processing

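Of 73 alternative values of the tested H3K27ac results, 68 kept their direction and their side of the threshold. The exceptions belong to results that had not passed it. The log2 ratio of H3K27ac summits between over outside H3K4me3 summits was -0.16 in peaks under 1000 bp (p = 0.0547, exact sign-flip test), 0.12 in 3-summit peaks (p = 0.0391, the same exact test) and from -0.0068 to 0.074 with an animal left out. The cause was not tested. In peaks of 1500 to under 2000 bp, the H3K27ac difference between classes was 2.03 percentage points with entries of −log10 q of at least 5 (p = 0.0547, the same exact test) in place of -0.69. That threshold left the differences at 500 to under 1000 bp and at 1000 to under 1500 bp negative, at -5.66 and -3.18.

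The excess of 2- and 3-summit peaks over single-summit peaks was 6.98 percentage points when 1 H3K27ac peak had to cover at least 50% of the interval, in place of 27.1. The rule asks more of wide peaks. The near-summit excess ran from 37.0 to 45.1, and the difference in recurrence, which was not tested, from 55.6 to 63.9 percentage points. Ignoring the pairing (no replicate block, class labels permuted among libraries within species) left the difference in H3K27ac at 27.1 (p = 0.000833, exact permutation test over 2400 arrangements), and changed no call. Peak lists limit the comparison to called summits. A summit below the caller's threshold counts as absent.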

Other observations

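In 2-summit peaks the right summit, the one with the higher coordinate, was the stronger a little more often than the left. Among 2-summit H3K4me3 peaks with unequal summits its share was 51.2% to 52.4% in the 9 libraries, above 50% in each. In H3K27ac peaks chosen in the same way it was 51.9% to 53.4% in the 8 libraries. Gene strand was not used, and the values come from the lists that chose them, so no test was made.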
